A study of Homo sapiens with 6 samples.

Results

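The genes described here are 45 genes of the actin cytoskeleton and the contractile apparatus that are commonly listed as targets of serum response factor (SRF) and its myocardin-related cofactors, together with the factors themselves, out of 57820 genes in the count table. The list was drawn up with the values of these same libraries in view, among them higher contractile and actin transcripts in the knockout libraries, so every difference given for its members is a description and not a test of the list. The measurement was poly(A) RNA-seq of J82, a long-established cell line from a human bladder carcinoma. Libraries of the control group (n = 3) came from J82 cells described as vector control cells. Libraries of the FOXC1 KO group (n = 3) came from J82 cells transduced with a lentiviral CRISPR vector, lentiCRISPR v2, carrying a guide RNA against FOXC1, which encodes a forkhead transcription factor. The knockout cells were selected with puromycin, and J82 cells were grown in DMEM with serum. The methods of the paper do not state whether the control vector carried Cas9 or whether the controls were selected likewise. The knockout cells were described as clones checked by Western blot, and whether the 3 KO libraries came from 1 clone is not given in the sources used here, so loss of FOXC1 and properties of a clone cannot be told apart. Nothing in the labels says that the replicates were separate cultures, and the tests then measure only the spread between these libraries, which may be technical.

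SRF is a DNA-binding protein that sits on a short A/T-rich element, the CArG box, in the promoters of many cytoskeletal genes. Its cofactors MKL1 and MKL2 (also named MRTFA and MRTFB) bind monomeric actin in the cytoplasm, and when actin polymerises they are released, enter the nucleus and switch on actins, myosin light chains, calponins, tropomyosins and focal adhesion proteins. Myocardin (MYOCD), the relative restricted to muscle, drives the smooth muscle programme that includes ACTG2, CNN1, TAGLN, SMTN, MYH11 and DES. A separate family, the ternary complex factors, pairs with SRF on early response genes such as FOS and EGR1. In the bladder the full programme belongs to the muscle of the wall, whereas urothelial cells mostly use the cytoplasmic actins ACTB and ACTG1.

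The libraries held 22900531 to 25013311 counts in control and 18408134 to 25350908 in FOXC1 KO, and every pair within a group correlated more closely over genes (Pearson r of log values at least 0.9938) than any pair between groups (at most 0.9852). FOXC1 was at 18.4, 16.9 and 19.3 CPM, the unit of level used throughout (counts scaled to library size with the TMM method), in the controls and 24.1, 22.2 and 21.1 in KO, a log2 fold change of 0.30 ± 0.091 (SE), which was under the fold threshold. A guide can disrupt the protein without lowering the transcript, so FOXC1 counts do not check the labels and the KO group is the group of libraries labelled so. Of the urothelial markers, KRT7 stood at 909 to 1106 CPM in the controls and GATA3 at 33.6 to 37.6, while CDH1, KRT5, KRT20, UPK1A, UPK1B and UPK3A had at most 3 counts in every library.

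The contractile genes that differed most were ACTG2, CNN1, TAGLN, FSCN1, MYL9 and SMTN, all higher in FOXC1 KO, while the muscle-restricted members MYH11, MYOCD, LMOD1 and DES stayed near 0 in both groups. Of the 45 members, 42 had enough counts to be tested, CNN1 only through the KO libraries, since it had 0 counts in the controls. A gene was called where the Benjamini-Hochberg adjusted p of edgeR's quasi-likelihood test over all 15647 tested genes fell under 0.05 with a fold change above 1.3. By that rule 18 members were called higher in KO, beside 7.57% of all tested genes, and 0 were called lower, beside 8.39%. DESeq2 also called 18 higher, the same genes, and 0 lower, and MYLK was the 1 member that was lower at an unadjusted p under 0.05 in edgeR. On the adjusted p alone, 28 members were higher (15.2% of all tested genes) and 0 lower (14.3%), and at a fold over 2 there were 6 higher (2.02%) and 0 lower (2.05%). The median log2 fold change was 0.34 over the 42 tested members and -0.00084 over all tested genes, with 35 members above zero and 7 below. In 25 tested members every KO library lay above every control library (20.5% of all tested genes), and in MYL12B and MYLK, 2 of the tested members, every KO library lay below (20.8%). Since the list was chosen with these values known, nothing is read from those shares. In bulk RNA, more cells expressing a gene and more RNA per cell cannot be told apart.

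**Figure D1:**
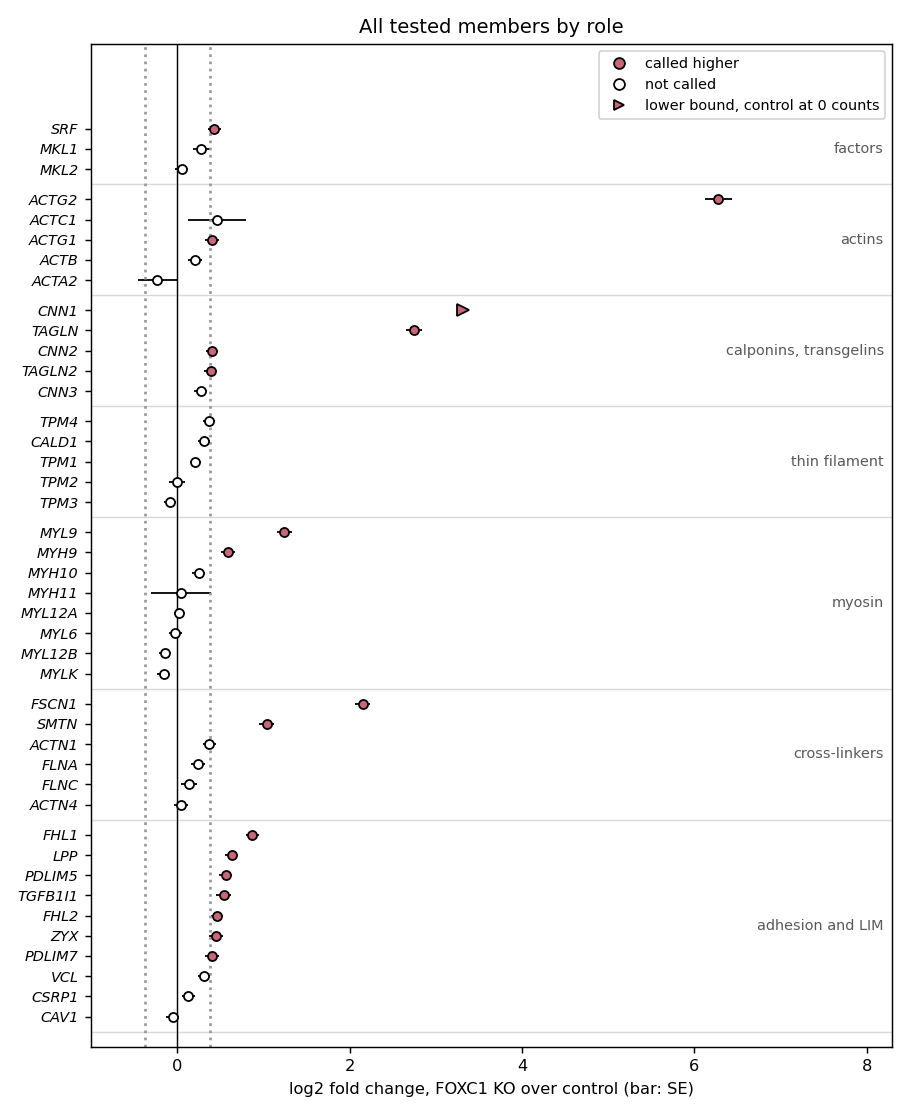
The log2 fold change of each of the 42 tested members, FOXC1 KO over control, grouped by role, where bars are SE, filled circles are called members, dotted lines mark a fold of 1.3 and the triangle is the lower bound for CNN1, which had 0 counts in the controls. The 18 called members all lie to the right, ACTG2 farthest at 6.28, and the thin filament group has no called member.

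CArG boxes were looked for in the promoters of the members, because SRF binds them. The RefSeq promoter table (GRCh38.p14, 250 bases before to 50 bases after each start) held windows for 38 of the 45 members. DES, MYL9, TAGLN, ACTB, MYOCD, MYH11 and FSCN1 had no window. An exact CArG box, 10 bases long and searched on both strands, on which it reads alike, was present in 14 of 38 members (36.8%) and in 438 of 27305 genes of the whole table (1.60%). Of the called members with a window, 9 of 15 (60.0%) held a box, as did 5 of 23 (21.7%) of the others. Members had more windows per gene, 94 for 38 members beside 35116 for 27305 genes, which raises shares counted by gene. Counted by window, a box was present in 17.0% for the members and 1.29% for the whole table. It was 25.6% for the called members and 9.80% for the others. The members were listed as SRF targets, so boxes among them are a property of the list. The windows of the 6 called members with a box and the largest fold change are printed to show how the element sits before a start. They run 5′ to 3′ on the coding strand, cover the 250 bases that end just before the start, and have the CArG boxes in capitals.
The windows lie at chr2:73892758-73893007 (+) for ACTG2, chr22:31084746-31084995 (+) for SMTN, chrX:136196797-136197046 (+) for FHL1, chr3:188212462-188212711 (+) for LPP, chr16:31472955-31473204 (+) for TGFB1I1 and chr2:105438530-105438779 (-) for FHL2.
ACTG2: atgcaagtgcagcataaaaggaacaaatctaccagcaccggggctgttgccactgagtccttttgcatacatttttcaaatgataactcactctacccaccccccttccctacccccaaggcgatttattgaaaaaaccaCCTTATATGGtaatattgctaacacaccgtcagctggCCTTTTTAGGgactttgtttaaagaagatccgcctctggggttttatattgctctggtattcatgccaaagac
SMTN: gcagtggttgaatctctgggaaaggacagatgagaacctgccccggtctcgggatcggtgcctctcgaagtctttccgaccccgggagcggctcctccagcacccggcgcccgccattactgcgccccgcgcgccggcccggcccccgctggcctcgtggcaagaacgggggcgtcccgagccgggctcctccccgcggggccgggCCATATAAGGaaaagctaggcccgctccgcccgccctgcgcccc
FHL1: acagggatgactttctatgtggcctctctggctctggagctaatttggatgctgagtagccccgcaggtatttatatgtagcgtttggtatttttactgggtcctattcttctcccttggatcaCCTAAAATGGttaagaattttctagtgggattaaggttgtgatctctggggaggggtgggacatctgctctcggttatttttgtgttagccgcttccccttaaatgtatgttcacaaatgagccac
LPP: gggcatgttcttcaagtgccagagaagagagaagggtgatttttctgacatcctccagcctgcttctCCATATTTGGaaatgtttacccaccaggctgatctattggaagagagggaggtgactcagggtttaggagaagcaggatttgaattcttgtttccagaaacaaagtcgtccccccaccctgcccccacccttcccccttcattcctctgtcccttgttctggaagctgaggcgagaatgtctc
TGFB1I1: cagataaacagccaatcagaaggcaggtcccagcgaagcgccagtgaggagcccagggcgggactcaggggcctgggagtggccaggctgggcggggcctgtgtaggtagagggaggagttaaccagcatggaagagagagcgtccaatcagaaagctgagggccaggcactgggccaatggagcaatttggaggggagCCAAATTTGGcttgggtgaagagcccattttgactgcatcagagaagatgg
FHL2: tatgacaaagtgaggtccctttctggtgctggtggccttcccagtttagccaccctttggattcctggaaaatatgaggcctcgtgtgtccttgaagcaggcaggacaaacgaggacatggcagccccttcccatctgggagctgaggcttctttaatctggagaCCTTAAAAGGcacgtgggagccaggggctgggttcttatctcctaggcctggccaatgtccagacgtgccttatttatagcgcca

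ACTG2, the member with the largest measurable fold change, had 2 boxes, which begin 110 and 73 bases before the start. SRF itself also had 2, at 30 and 10 bases before its start. The box begins 44 bases before the start of its window in SMTN, 51 in TGFB1I1, 126 in FHL1 and 183 in LPP. Each of these genes, like SRF, also had a window or windows at other starts without a box. Which starts the cells used cannot be told from counts per gene. FHL2 had 2 boxes in 3 windows. The printed box begins 85 bases before the start of its window and 101 bases before that of an overlapping window, and the other box lies at 59 bases in a separate window. Among called members with small changes, ACTG1 had a box at 94 bases and CNN2 at 89. A box was also present in ACTC1, TPM4, MYLK, FLNA and ACTN1, none of which was called, with log2 fold changes from -0.16 in MYLK to 0.46 in ACTC1. The letters GTAAACA, a core element of forkhead factors, were searched on both strands too. They were found in 5 of 38 members (13.2%: MKL1, ACTA2, CALD1, SMTN and LPP) and in 4.19% of all genes of the table. Since members had more windows per gene, the shares by window lay closer, at 5.32% and 3.42%. For promoters of the tested genes alone, the shares were 3.60% by gene and 2.67% by window. A match is a run of letters and not a measured binding site, and a window without one says nothing about the factor.

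Among the factors, SRF was called higher and its cofactors were not. SRF (chr6:43139007-43149244 on GRCh37, plus strand) was at 60.1, 51.9 and 54.4 CPM in the controls and at 70.1, 78.6 and 75.4 in FOXC1 KO. All 3 KO libraries were above all 3 controls, and the log2 fold change was 0.43 ± 0.078 (SE), a fold of 1.35. MKL1, the main actin-sensing cofactor, was at 30.2, 22.8 and 26.0 CPM in the controls and 32.3, 35.8 and 27.9 in KO. Its groups overlapped, and its log2 fold change of 0.28 passed the adjusted p but not the fold threshold. SGSM3, which overlaps MKL1 on the other strand, was called higher at 0.43, and whether the counting used strand is not given in the sources used here, so reads of the overlap cannot be assigned. MKL2 was at 44.3, 43.9 and 41.6 CPM in the controls and 46.4, 42.7 and 45.4 in KO, with a log2 fold change of 0.05. MYOCD had 3, 3 and 6 counts in the controls and 2, 3 and 1 in KO, too few to test, although each KO library was below each control in CPM. Per kilobase of exon, MKL1 stood at 3.59 CPM and MKL2 at 2.61 in the controls, against 0.0185 for MYOCD. These are transcript levels, whereas the cofactors are controlled by where they sit in the cell, which was not measured here.

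Among the 5 actins, ACTG2 and ACTG1 were called higher and ACTB, ACTA2 and ACTC1 were not. ACTG2, the gamma actin of visceral smooth muscle (chr2:74119441-74146992 on GRCh37, plus strand), was at 0.490, 0.369 and 0.432 CPM in the controls, from 11, 9 and 11 counts. In FOXC1 KO it was at 31.7, 36.2 and 32.9 CPM, from 584, 914 and 774 counts. The groups lay far apart, with a log2 fold change of 6.28 ± 0.16 (SE), a fold of 77.5. ACTA2, the alpha actin of vascular smooth muscle and of myofibroblasts, was at 1.38, 1.19 and 1.57 CPM in the controls and 1.25, 1.03 and 1.27 in KO. It overlapped between groups, with a log2 fold change of -0.23 ± 0.23 (SE). ACTA2 overlaps STAMBPL1 on the other strand, which was called lower at -0.60. ACTC1, the cardiac alpha actin, was at 0.758, 0.573 and 0.314 CPM in the controls and 0.652, 0.634 and 0.935 in KO, a log2 fold change of 0.46 ± 0.34 (SE) with overlapping groups.

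The cytoplasmic actins, which form the cortex and stress fibres of every cell, were already among the most abundant transcripts. ACTG1 was at 5342, 4668 and 4499 CPM in the controls and 6319, 6596 and 6283 in KO, a log2 fold change of 0.40 ± 0.079 (SE), and was called higher with every KO library above every control. ACTB was at 6179, 5260 and 5238 CPM in the controls and 6066, 6776 and 6484 in KO. Its groups overlapped because control replicate 1 was above KO replicate 1, and its log2 fold change of 0.21 was under the fold threshold. Per kilobase of exon, the actin messages summed to 2456 ± 231 CPM (SD, n = 3) in the controls and 3051 ± 117 in KO. Of that sum ACTG2 made up 0.00459% ± 0.000422 in the controls and 0.289% ± 0.00913 in KO. ACTB made up 51.4% in the controls and 47.9% in KO, and ACTG1 48.6% and 51.8%. Of the 75-base windows of ACTG2, the length of the reads, 0 are shared with any other annotated gene. Full-length reads of ACTB or ACTG1 without mismatches would therefore not be counted for ACTG2.

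**Figure D2:**
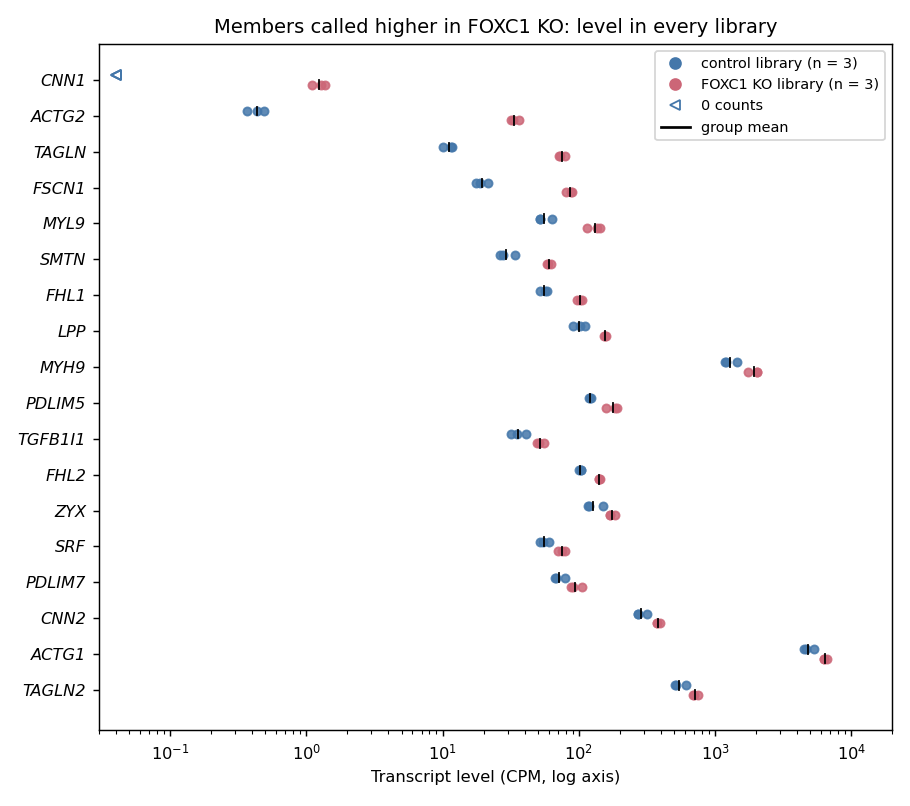
The transcript level in CPM on a log axis of the 18 members called higher, in each control (blue, n = 3) and FOXC1 KO (red, n = 3) library, with black ticks for group means and an open triangle for 0 counts. In every gene shown the 3 KO libraries lie to the right of the 3 controls, widest in CNN1, ACTG2, TAGLN and FSCN1 and narrow in ACTG1 and TAGLN2.

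Calponins and transgelins are small proteins that bind along actin filaments, and CNN1 and TAGLN are classic markers of differentiated smooth muscle. CNN1 (chr19:11649582-11661138 on GRCh37, plus strand) had 0 counts in all 3 controls and 25, 32 and 26 counts in FOXC1 KO, or 1.36, 1.27 and 1.10 CPM. Against a floor of 3 counts per control library (0.125 CPM) it was at least 9.97-fold higher in KO, at a level that was low in absolute terms. TAGLN, also called SM22 alpha (chr11:117070086-117078180, plus strand), was at 11.5, 11.8 and 10.0 CPM in the controls and 71.9, 79.6 and 72.2 in KO, a log2 fold change of 2.75 ± 0.090 (SE), or 6.72-fold. Of its 75-base windows, 82.3% are shared with 3 other annotated genes, ENSG00000280143, PCSK7 and ENSG00000254851. PCSK7, on the other strand, had a log2 fold change of 0.21 and was not called. Values of the others are not given here, and reads of the shared windows cannot be assigned. The broadly expressed relatives had smaller fold changes. CNN2 was at 317, 272 and 272 CPM in the controls and 371, 395 and 372 in KO (log2 fold change 0.40). TAGLN2 was at 609, 514 and 509 CPM in the controls and 687, 751 and 694 in KO (0.39). Both were called, just over the fold threshold, and CNN3 at 0.27 passed the adjusted p but not the fold. Per kilobase of exon, TAGLN went from 0.704% ± 0.0727 of the transgelin message (SD, n = 3) to 3.50% ± 0.0348, and CNN1 reached 0.157% of the calponin message in KO.

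Thin filament regulators line actin and control access of myosin, and none of the 5 tested here was called. The 3 with the highest CPM were TPM4, TPM3 and TPM1. TPM4, a short tropomyosin of non-muscle cells, was at 1033 to 1065 CPM in the controls and 1320 to 1387 in KO, with a log2 fold change of 0.37 just under the threshold. TPM1 was at 704 to 732 CPM in the controls and 815 to 852 in KO, at 0.21, and its antisense neighbour TPM1-AS was called higher at 0.57. TPM3 was at 731 to 802 CPM in the controls and 697 to 736 in KO, at -0.087. TPM4, TPM1 and CALD1 (caldesmon, 0.31) passed the adjusted p without the fold. TPM2, the tropomyosin typical of muscle, was at -0.0014, and LMOD1, which nucleates filaments in smooth muscle, had 3 to 6 counts in the controls and 3 to 5 in KO. The share of TPM4 in the tropomyosin message per kilobase was 44.3% ± 0.263 (SD, n = 3) in the controls and 49.7% ± 0.668 in KO. That of TPM3 was 26.5% ± 0.961 and 21.6% ± 0.490. These shares use the bases of all annotated exons, 12375 for TPM4 and 14700 for TPM1. The reference transcripts of the annotation have 2474 and 1217 bases, so which tropomyosin ranks first depends on the length used.

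Of the myosin genes, the regulatory light chain MYL9 and the heavy chain MYH9 were called higher. MYL9, the light chain whose phosphorylation starts contraction (chr20:35169900-35179850 on GRCh37, plus strand), was at 63.7, 51.5 and 51.5 CPM in the controls and 115, 143 and 135 in FOXC1 KO, a log2 fold change of 1.24 ± 0.088 (SE), or 2.36-fold. Its near relatives were not called, MYL12A at 0.025 and MYL12B at -0.14. MYH9, the heavy chain of non-muscle myosin IIA, was at 1453, 1207 and 1186 CPM in the controls and 2022, 2018 and 1755 in KO, a log2 fold change of 0.59. MYH10, which encodes non-muscle myosin IIB, was at 0.25 and passed the adjusted p alone. MYH11, the smooth muscle heavy chain, had 10 to 22 counts in the controls and 12 to 16 in KO, at 0.04 ± 0.35 (SE). MYLK, the kinase of the light chains, was at 353 to 378 CPM in the controls and 309 to 350 in KO, at -0.16. MYL6, the essential light chain, was at 1689 to 1898 CPM in the controls and 1618 to 1864 in KO, at -0.025. Per kilobase, MYL9 went from 2.17% ± 0.235 of the light chain message (SD, n = 3) to 5.15% ± 0.323, and MYH9 made up 96.1% of the heavy chain message in the controls and 96.9% in KO.

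Among the proteins that cross-link or anchor filaments, FSCN1 and SMTN were called and the large cross-linkers were not. FSCN1 encodes fascin, which packs actin into the tight bundles of filopodia (chr7:5632447-5646286 on GRCh37, plus strand). It was at 21.4, 17.7 and 18.8 CPM in the controls and 81.0, 89.4 and 86.8 in FOXC1 KO, a log2 fold change of 2.15 ± 0.085 (SE), or 4.44-fold. SMTN, or smoothelin, found with stress fibres of contractile smooth muscle (chr22:31460091-31500743, plus strand), was at 34.0, 27.8 and 26.3 CPM in the controls and 59.2, 62.6 and 58.6 in KO, a log2 fold change of 1.04 ± 0.088 (SE). In both genes the lowest KO library was well above the highest control. The 3 most abundant members of the group were FLNA, ACTN1 and ACTN4. FLNA, filamin A, was at 2166 to 2768 CPM in the controls and 2581 to 2994 in KO with overlapping groups, at 0.24. ACTN1, an alpha-actinin of stress fibres and adhesions, was at 594 to 715 CPM in the controls and 815 to 832 in KO, at 0.37, and its close relative ACTN4 was at 0.044. FLNC, the muscle filamin, was at 0.14. DES, the intermediate filament of muscle, had at most 3 counts in any library and was not tested.

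Adhesion and LIM domain genes held the most calls by number, 7 of 10 tested, with modest folds, beside 7.57% of all tested genes called higher. The smaller group of calponins and transgelins held 4 of 5. FHL1 and FHL2 encode LIM-only proteins that shuttle between adhesions and the nucleus. FHL1 was at 58.6, 52.0 and 56.8 CPM in the controls and 97.6, 102 and 106 in FOXC1 KO, a log2 fold change of 0.87. FHL2 was at 104, 100 and 103 CPM in the controls and 143, 140 and 140 in KO, at 0.46. The LIM proteins of the zyxin family sit at focal adhesions and sense tension. LPP was at 102, 110 and 90.8 CPM in the controls and 155, 158 and 154 in KO, at 0.63. ZYX was at 149, 118 and 116 CPM in the controls and 170, 184 and 168 in KO, at 0.45. PDLIM5 and PDLIM7 combine a PDZ domain, which holds alpha-actinin or tropomyosin, with LIM domains. PDLIM5 was at 122, 121 and 118 CPM in the controls and 184, 159 and 190 in KO, at 0.56. PDLIM7 was at 79.6, 68.1 and 66.5 CPM in the controls and 86.8, 105 and 90.2 in KO, at 0.40. TGFB1I1 (Hic-5), a relative of paxillin, was at 40.6, 34.9 and 31.6 CPM in the controls and 49.0, 55.0 and 50.9 in KO, at 0.54. Of the 10 tested genes of this group, 8 had every KO library above every control library (20.5% of all tested genes). These were the 7 called genes, which were called on the same values, and VCL, and in PDLIM7 the gap was small. VCL, vinculin, at 0.31 passed the adjusted p alone. CSRP1 was at 0.13, and CAV1, the caveolae protein, at -0.055.

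Most of the large fold changes came from members with low starting levels. The 20 members with the highest control level per kilobase held 6 called genes, and MYL9 alone exceeded 2-fold. The 25 with the lowest level held 12 called of 22 tested, of which 5 exceeded 2-fold. Of all tested genes, 7.57% were called higher, and 2.02% at a fold over 2. Low level did not go with a large fold in every case, since ACTA2 at 0.245, ACTC1 at 0.192 and MYH11 at 0.0358 CPM per kilobase in the controls, beside ACTG2 at 0.113, were not called. The control libraries enter both the level and the fold, so the relation is a description.

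**Figure D3:**
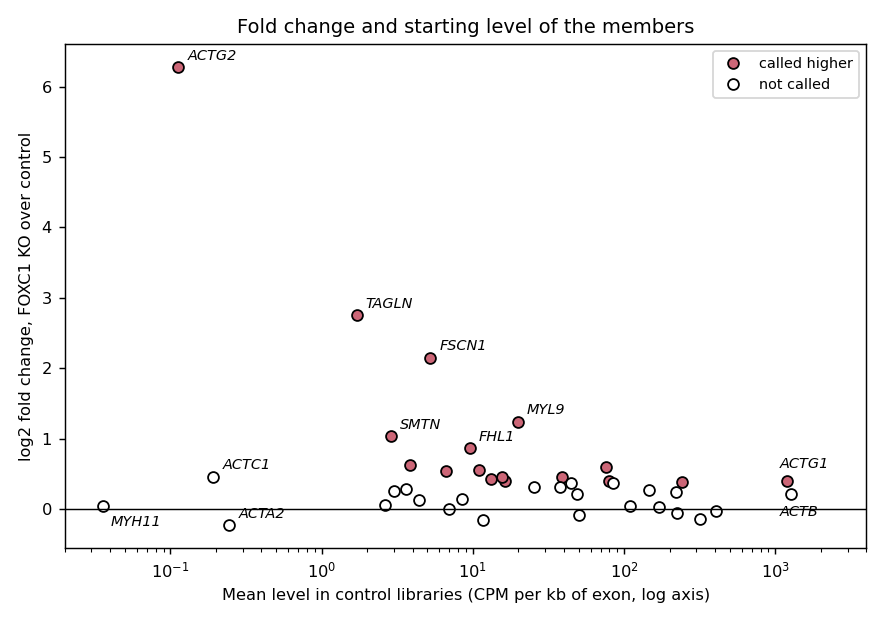
The log2 fold change, FOXC1 KO over control, against the mean control level in CPM per kilobase of exon on a log axis, 1 point per tested member, filled where called, without CNN1, which had 0 counts in the controls. ACTG2 at 6.28 stands at the low end beside ACTA2, ACTC1 and MYH11, and ACTB and ACTG1 lie at the high end with log2 fold changes of 0.21 and 0.40.

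Single libraries of both groups bore on these values. Control replicate 1 was the highest of the 3 controls in 31 of the 42 tested members (73.8%), beside 40.7% of all tested genes. Without it, 20 members were called higher (7.68% of all genes tested then), and the median log2 fold change was 0.42. Without it 34 members did not overlap between groups (54.4% of all tested genes), and with it 27 (41.3%). The 18 genes called with it were all called without it as well, joined by MKL1 and ACTN1. In the other group, KO replicate 2 was the highest of the 3 KO libraries in 22 of the 42 members (52.4%), beside 35.6% of all tested genes. Without KO replicate 2, 16 members were called higher (7.44% of all genes). Without control replicate 2 (7.18% of all genes called higher) or control replicate 3 (7.22%) it was 14 members. CNN2, TAGLN2 and PDLIM7 lost their calls in all of these, and ACTG1 in those without control replicate 2 or 3, each by falling under the fold threshold.

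Other genes of the pathway were read from lists written for this purpose, none of whose genes is a member. The counts of these lists stand beside 7.57% of all tested genes called higher and 8.39% called lower. Early response genes of the ternary complex branch had 16 tested genes with a median of 0.13, of which 1 rose and 0 fell. DESeq2 also called 0 lower, and 1 was lower at an unadjusted p under 0.05 in edgeR. IER3, a stress-responsive survival gene, was at 3.57, 3.60 and 3.89 CPM in the controls and 9.94, 10.1 and 8.71 in FOXC1 KO, a log2 fold change of 1.37 (edgeR adjusted p = 8.26e-10). EGR1 and FOS, textbook genes of this branch, were at 0.15 and 0.35 and were not called. ELK3, a ternary complex factor, was called higher too without control replicate 3 (0.38) or KO replicate 2 (0.45).

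Smooth muscle genes beyond the members moved both ways. Of 25 such genes 13 were tested, 3 rose and 6 fell, and the median was -0.12. Of the 6, PGM5 and ITGA7 were not called by DESeq2, without control replicate 3 or without KO replicate 2, which left 4, and 3 remained among genes with a mean of at least 50 counts. SORBS2, an adapter of stress fibres and Z-bands, was at 0.624, 0.819 and 0.590 CPM in the controls and 2.88, 2.42 and 2.08 in KO (log2 fold change 1.84, edgeR adjusted p = 4.59e-07). MCAM, a cell adhesion protein, rose by 0.76 and NEXN, an actin-binding protein of muscle and adhesions, by 0.71. On the other side, GUCY1A3, a subunit of the nitric oxide receptor, was at 3.92, 3.93 and 3.46 CPM in the controls and 1.58, 1.31 and 1.61 in KO (-1.33, edgeR adjusted p = 7.76e-07). PRUNE2 fell by 0.73 on the log2 scale and SYNM, an intermediate filament protein of muscle, by 0.50. The potassium channel subunit KCNMB1, PLN (phospholamban) and CASQ2 (calsequestrin) had at most 3 counts in every library.

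Focal adhesion scaffold genes had 32 tested, of which 7 rose and 2 fell, with a median of 0.17. With 1 library left out, 5 to 8 rose and 2 or 3 fell. PARVB, LIMS1, PALLD and FHL3, which rose, each lost the call in at least 1 of those runs. NEDD9, a Cas family scaffold, rose by 0.93 on the log2 scale, from 7.19 to 7.90 CPM in the controls to 13.6 to 15.6 in KO (edgeR adjusted p = 6.02e-08). ILK, the integrin-linked kinase, rose by 0.78, and SVIL, supervillin, by 0.63. PDLIM3, the muscle relative of PDLIM5 and PDLIM7, went the other way, from 6.15, 5.40 and 6.33 CPM in the controls to 1.96, 1.86 and 2.17 in KO (-1.58, edgeR adjusted p = 2.73e-09), and CRIP2, a small LIM protein, fell as well, from 1.93 to 2.76 CPM in the controls to 0.977 to 1.23 in KO, with too few counts to be tested at a mean of at least 50. Genes of actin bundling and protrusion had 28 tested, a median of -0.0077, 1 that rose and 2 that fell. MSN, moesin, rose by 0.41, a call that was lost without control replicate 2 (0.35), control replicate 3 (0.37) or KO replicate 2 (0.37), and without control replicate 1 MYO1C, a short-tailed myosin, was called as well. In the other direction, LCP1 (L-plastin), a bundling protein like fascin, fell from 1138 to 1232 CPM in the controls to 833 to 863 in KO (-0.48, edgeR adjusted p = 3.71e-06), and TMOD1, a pointed-end cap, fell by 0.56.

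**Figure D4:**
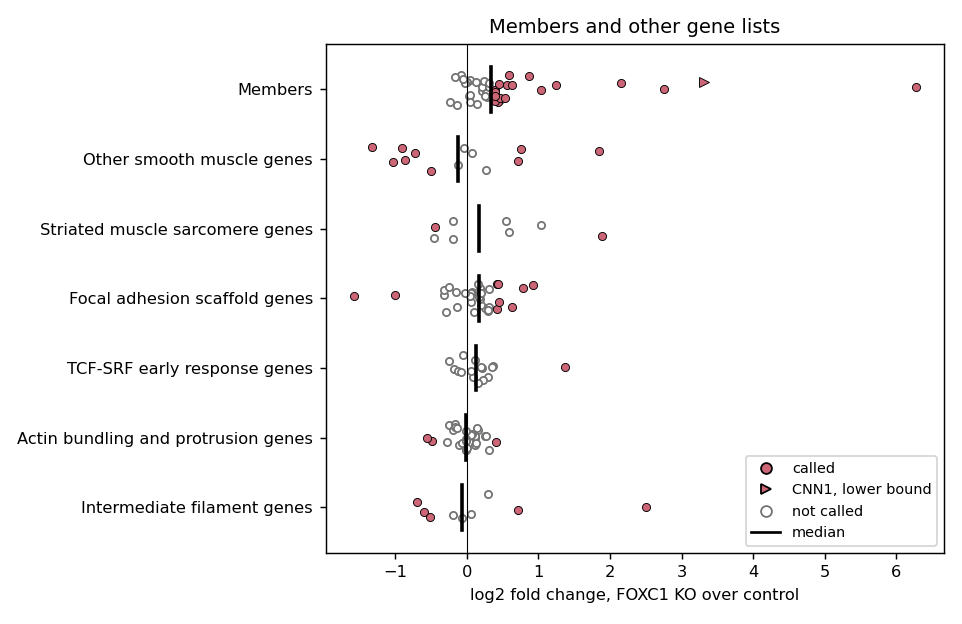
The log2 fold change, FOXC1 KO over control, of each tested gene of the members and of 6 other lists, with filled points for called genes, black bars for medians and a triangle for the lower bound of CNN1. The members have called genes only to the right of 0, whereas the other smooth muscle, focal adhesion and intermediate filament genes have called genes on both sides; the members were listed with these values known.

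Marker genes of other cell types moved between the groups too, beside 7.57% of all tested genes called higher and 8.39% called lower. Smooth muscle defining markers summed to 28.8 to 36.8 CPM in the controls and 61.6 to 66.5 in FOXC1 KO. Of the 10, 6 are members, and 2 of 4 tested were called higher. Most of the sum was SMTN, at 26.3 to 34.0 CPM in the controls and 58.6 to 62.6 in KO. CNN1 was the other called gene, whereas SYNPO2 (-0.12) and MYH11 (0.04) were not called. DES, KCNMB1, PLN and CASQ2 of that list had at most 3 counts in every library. Fibroblast markers summed to 514 to 597 CPM in the controls and 305 to 308 in KO, with 1 of 6 tested called higher and 3 lower. Epithelial and urothelial markers summed to 3178 to 4000 CPM and 2488 to 2765, with 6 of 7 tested called lower. Endothelial markers were at 0.629 to 1.02 CPM in all and 1.59 to 1.90, with CDH5 called higher of 2 tested (0 to 0.0393 CPM in the controls and 0.714 to 1.10 in KO). CDH5 had enough counts to be tested only through the KO libraries. Leukocyte markers were at 3.81 to 4.72 CPM and 6.11 to 6.92, with CD14 called higher of 2 tested, at a log2 fold change of 0.62. The part of any of these in the values of the members was not tested.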

How the data were processed

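The authors sequenced poly(A) RNA of 6 J82 libraries, 3 per group (KAPA mRNA HyperPrep, NextSeq 550, paired reads of 75 bases), aligned the reads with STAR to hg19 and counted them per GENCODE 19 gene with featureCounts of the Subread package. The deposited values are raw counts per gene, not normalized. Tool versions, the strand setting and the treatment of multimapping reads are not given in the sources used here, so genes that overlap on opposite strands, or share sequence, are uncertain where named. The members and gene lists were chosen with earlier results of these data known, and the rule for named genes took every called member, the factors, the actins and FSCN1 by library, other members by range, and from each list the called genes with the 3 smallest p-values in each direction.

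Counts were filtered with filterByExpr, scaled by TMM and tested with edgeR 4.0.16 (robust quasi-likelihood F test, group as the only term, R 4.3.3), with Benjamini-Hochberg adjustment over 15647 genes. Calls needed an adjusted p under 0.05 and a fold over 1.3. SE is the log2 fold change divided by the square root of F. DESeq2 1.42.0, other scalings, filters, fold thresholds, a replicate block and leaving out each library were the alternatives. The test was checked on simulated counts. Gene coordinates are from GENCODE v44 lifted to GRCh37, the assembly of hg19. The bases of all its exons of a gene together gave CPM per kilobase, so shares and ranks between genes depend on that length. Gene identifiers of this annotation matched 55538 of 57820 rows (96.05%). All 45 members were found, 2 by older symbols, and 237 of 238 list entries. Promoters are from RefSeq (GRCh38.p14) and their coordinates were not mixed with GRCh37. Same-numbered replicates of both groups did not deviate together (correlations of -0.0271, -0.0718 and 0.0501), so the numbers do not pair the libraries. Totals of 18408134 to 25350908 counts per library limit genes such as CNN1, MYH11 and MYOCD, where few counts were seen. 1 further gene list is not reported here.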

Additional observations from a re-analysis of the deposited data

How the results depend on the processing

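With no fold threshold 28 members were called higher, and with a fold over 2 there were 6. With the longest transcript as gene length, ACTG2 made up 0.00506% of the actin message in the controls and 0.319% in FOXC1 KO. Leaving out 1 library at a time gave 14 to 20 members called higher, beside 7.03% to 7.68% of all genes tested. The median log2 fold change of the members was 0.30 to 0.42. Between groups 27 to 34 members did not overlap, beside 46.4% to 54.4% of all tested genes. With the replicate block 18 members were called higher and 0 lower and the median was 0.34, and the block changed no call among the members. The same-numbered libraries share only a number. No member was called lower in any alternative run. Of 215 values of called members over the alternatives, 203 kept direction and call and 12 lost the call, all in ACTG1, CNN2, TAGLN2 and PDLIM7, which lie just over the fold threshold (without control replicate 2, control replicate 3 or KO replicate 2, and TAGLN2 also among genes with a mean of at least 50 counts), and 0 changed sign. Of 285 values of members not called, 3 gained a call, MKL1 and ACTN1 without control replicate 1 and TPM4 without KO replicate 2. Counting depth limits MYOCD, LMOD1 and DES, which could not be tested, and 3 libraries per group limit small folds. With CNN1 at its lower bound, the median of the members was 0.34 as well.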

Other observations

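Keratins, the intermediate filaments of epithelial cells, lie beside the actin cytoskeleton and were measured in the same libraries. Of 9 tested intermediate filament genes, 2 rose and 3 fell, with a median log2 fold change of -0.065. KRT17, a keratin of basal and stressed epithelium, was at 4.37, 3.03 and 3.42 CPM in the controls and 21.6, 21.2 and 18.1 in FOXC1 KO (log2 fold change 2.50, edgeR adjusted p = 1.91e-15), and KRT81, a hair keratin, rose by 0.71. The simple epithelial keratins went the other way. KRT8 was at 1964, 1522 and 1487 CPM in the controls and 1077, 1157 and 1039 in KO (-0.60, edgeR adjusted p = 3.11e-06), KRT18, its partner, fell by 0.51 on the log2 scale and KRT19 by 0.70. KRT7 was at -0.065 and was not called.

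Sarcomere genes of striated muscle were mostly silent, with 25 of 36 at no more than 3 counts in every library. Of 8 tested, 1 rose and 1 fell, and the gene that rose, LDB3, had enough counts to be tested only through the KO libraries. LDB3, a Z-band protein that binds alpha-actinin, was at 0.178, 0.328 and 0.157 CPM in the controls and 0.869, 0.872 and 0.765 in KO (1.89, edgeR adjusted p = 0.000275), and TNNT1, slow skeletal troponin T, fell by 0.44, a call lost without control replicate 1 (-0.34). The count that rose became 2 without control replicate 1 (TNNC2), without KO replicate 2 (MYOT) or with no filter on low counts (MYL3), and 0 at a mean of at least 50 counts, where LDB3 was not tested.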
